A study of Mus musculus with 4 samples.

Results

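The genes described here are 7 matrix metalloproteinases (MMPs), Mmp2, Mmp8, Mmp9, Mmp12, Mmp13, Mmp14 and Mmp19, and 3 tissue inhibitors of metalloproteinases (TIMPs), Timp1, Timp2 and Timp3. They were found by symbol as 10 of the 24421 rows of a gene table, and all 10 were among the 12103 genes tested, each above 1 FPKM in every mouse. The table holds polyA RNA-seq of 4 C57BL/6 mice aged 8 weeks, of which 2 were wild type (Usp25+/+, named WT-139 and WT-140) and 2 were knockouts (Usp25-/-, named KO-826 and KO-850). Every mouse had been given 2.5% dextran sulfate sodium (DSS), a compound that injures the gut lining, for 5 days and then plain water for 2 days. The samples are labelled as colon, cut near the anus, and come from separate mice. The origin of the Usp25 allele is not stated in the labels, and no untreated mice were analysed here. Usp25 encodes a deubiquitinating enzyme, and the comparison asks how these samples, taken after DSS, differ without it.

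MMPs are zinc-dependent enzymes that cut collagens, elastin and other proteins of the extracellular matrix. Most are made as inactive precursors and are switched on by removal of a propeptide, and TIMPs block the active enzymes by binding to their catalytic site. In inflamed gut they are known from several cells: neutrophils store Mmp8 and Mmp9 in their granules, macrophages make Mmp12, and stromal cells make Mmp2, Mmp13 and Mmp14.

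Levels are given as FPKM, a value scaled to transcript length and library size, so that levels can be compared between genes. Sequencing depth is unknown. Usp25 measured 38.5 FPKM in WT-139, 16.6 in WT-140, 2.65 in KO-826 and 1.71 in KO-850, which follows the labels. Mouse WT-139 stood apart, with correlations of 0.876 to 0.890 to the other mice across tested genes against 0.933 to 0.968 among those 3. Markers of the labelled tissue were weak: 7 of 10 colon epithelium markers were below 1 FPKM in all 4 mice, and Zg16 and Aqp8 were listed at 0 in each. Their summed level was 12.3 FPKM in WT-139, 13.2 in WT-140, 125 in KO-826 and 36.9 in KO-850, mainly from Krt20 and Lgals4. The 10 lung epithelium markers, none below 1 FPKM in all mice, summed to 2324 FPKM in WT-139, 4471 in WT-140, 5281 in KO-826 and 5336 in KO-850. In each mouse the lung epithelium sum was thus far above the colon epithelium sum, and the cause was not tested. Tissue is therefore named below only as the label gives it.

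None of the 10 genes passed the test between genotypes. The test was on the log2 difference of FPKM + 1, knockout minus wild type. After Benjamini-Hochberg adjustment, limma put 0 of 12103 genes under the threshold of 0.05 (0%). An unadjusted p under 0.05 was found for 400 genes (3.3%), Mmp13 among them. For 3 of the 10 genes, Mmp12, Mmp13 and Timp1, both knockouts lay above both wild types, and this held for 19% of all tested genes. The opposite held for 0 of the 10 and for 14.7% of all tested genes. The median log2 difference over the 10 was 0.17, and over all tested genes it was 0.03. Without mouse WT-139 these medians were 0.41 and -0.01. In bulk RNA, fewer cells of a type and less RNA per cell cannot be told apart.

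**Figure D1:**
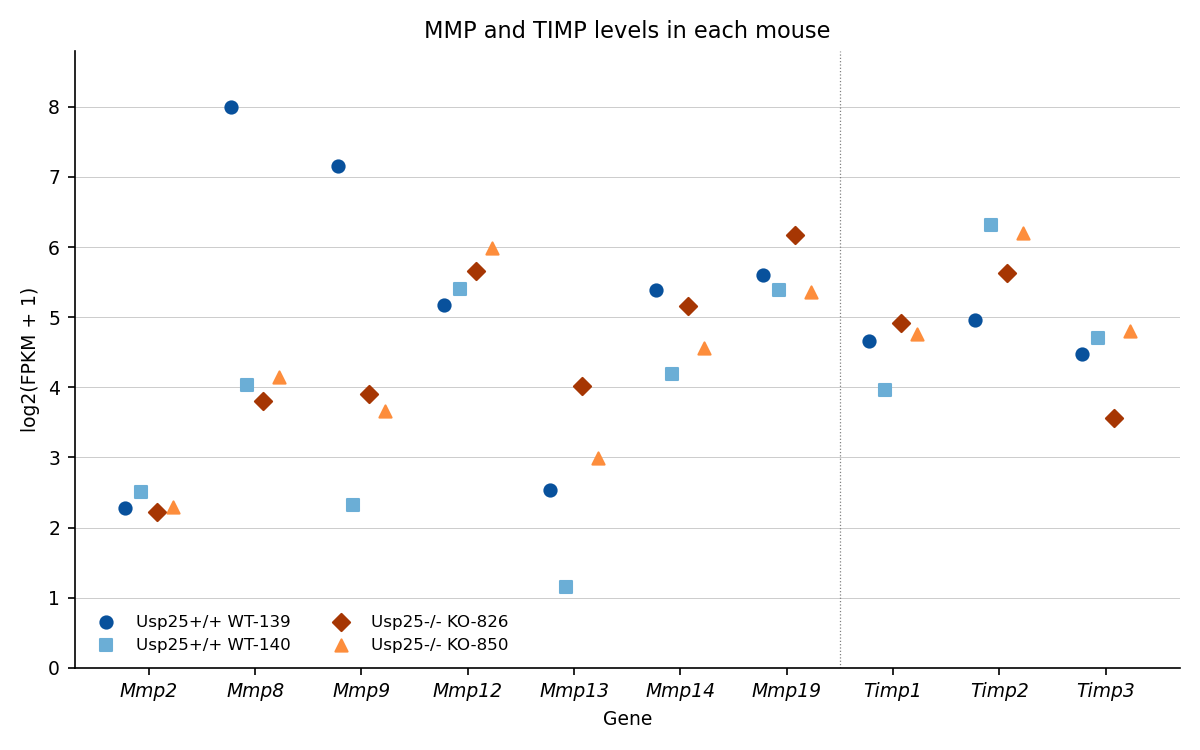
Levels of the 7 MMP and 3 TIMP genes as log2(FPKM + 1) on the vertical axis, 1 point per mouse, with genes along the horizontal axis and a dotted line between enzymes and inhibitors. Mouse WT-139 stands far above the rest for Mmp8 (254 FPKM) and Mmp9 (142 FPKM), and the Usp25-/- mice lie above the Usp25+/+ mice for Mmp12, Mmp13 and Timp1.

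Mmp8, Mmp12 and Mmp13 lie together on chromosome 9 in a run of 10 MMP genes, the others being Mmp1a, Mmp1b, Mmp3, Mmp7, Mmp10, Mmp20 and Mmp27. In the mm9 build, Mmp13 spans 7272514 to 7283333, Mmp12 spans 7344381 to 7369499 and Mmp8 spans 7558429 to 7568486, all on the plus strand. Mmp8 and Mmp13 have 10 exons in their longest transcript and Mmp12 has 7, and each is protein-coding. These neighbours had different patterns over the 4 mice: Mmp8 was highest in WT-139, Mmp12 in KO-850 and Mmp13 in KO-826. The 250 bases before each start site are shown for these neighbours because their levels differ so much, from RefSeq (GRCm38.p6, plus strand). They are chr9:7272264-7272513 for Mmp13, chr9:7344147-7344396 for the first of 2 listed starts of Mmp12, and chr9:7558179-7558428 for Mmp8. Capitals mark the letters of 3 motifs searched on both strands: TGANTCA, the AP-1 site, which reads the same on either strand; AGGAAG, the PEA3 site of ETS factors, or its reverse complement; and TATAAA, the TATA box. No printed matches overlap.
Mmp13: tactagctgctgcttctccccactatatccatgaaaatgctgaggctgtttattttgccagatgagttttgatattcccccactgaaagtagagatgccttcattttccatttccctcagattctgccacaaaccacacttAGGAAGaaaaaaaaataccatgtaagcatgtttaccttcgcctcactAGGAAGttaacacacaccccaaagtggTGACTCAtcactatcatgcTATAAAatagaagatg
Mmp12: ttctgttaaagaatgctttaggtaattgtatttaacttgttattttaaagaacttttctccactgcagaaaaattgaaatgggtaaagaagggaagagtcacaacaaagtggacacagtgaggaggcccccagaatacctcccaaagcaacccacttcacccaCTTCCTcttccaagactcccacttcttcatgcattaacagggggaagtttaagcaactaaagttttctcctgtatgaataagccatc
Mmp8: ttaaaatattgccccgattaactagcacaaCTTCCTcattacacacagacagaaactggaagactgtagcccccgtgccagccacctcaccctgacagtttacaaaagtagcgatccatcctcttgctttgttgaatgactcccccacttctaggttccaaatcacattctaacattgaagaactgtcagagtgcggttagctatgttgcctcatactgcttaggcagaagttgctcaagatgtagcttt

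The Mmp13 window held an AP-1 match, TGACTCA, beginning 35 bases before the start, PEA3 matches 109 and 62 bases before it and a TATA match 16 bases before it. The first Mmp12 window held a PEA3 match on the opposite strand 87 bases before the start, and the window of its second listed start held an AP-1 match, TGAGTCA, 44 bases before it. The Mmp8 window held a PEA3 match alone, 220 bases before the start. Among 32851 windows of this length, 6.75% held the AP-1 letters, 29.5% the PEA3 letters and 12.4% the TATA letters. RefSeq windows were matched for 7 of the 10 genes, 8 windows in all, leaving out Mmp2, Mmp9 and Mmp19. Of these 8 windows, 2 held AP-1 letters, 6 PEA3 letters and 1 TATA letters. A match describes the letters and is not a measured binding site.

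Mmp8 (neutrophil collagenase) measured 254 FPKM in WT-139, 15.4 in WT-140, 12.9 in KO-826 and 16.8 in KO-850. A single wild type was thus high and the other lay between the knockouts, so the groups overlapped. The log2 difference was -2.04 ± 1.26 (SE, n = 2 per group), with an adjusted p of 0.968 by limma. Mmp9 (gelatinase B), on chromosome 2 from 164766280 to 164781350 (mm9, plus strand, 13 exons), measured 142 FPKM in WT-139, 4.01 in WT-140, 14.0 in KO-826 and 11.7 in KO-850. Both knockouts therefore lay between the wild types, and the log2 difference was -0.95 ± 1.52 (limma adjusted p = 0.971). Of all genes tested, 5.21% stood in mouse WT-139 above every other mouse by over 1 on the log2 scale, and of the 10 members Mmp8 and Mmp9 did.

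The difference for these enzymes depended on which wild type was kept. With WT-140 left out, log2 differences were -4.02 ± 0.27 for Mmp8 and -3.37 ± 0.24 for Mmp9, with limma adjusted p of 0.0353 and 0.0368, where 0.76% of tested genes were called. Without mouse WT-139 it was -0.06 ± 0.28 for Mmp8 and 1.46 ± 0.27 for Mmp9, with limma adjusted p of 0.964 and 0.775 and 0% of genes called. In each of these fits a single wild type remains and is assumed to vary as the knockouts do. Over the 11 alternatives run, the limma adjusted p ran from 0.0353 to 1.00 for Mmp8 and from 0.0368 to 1.00 for Mmp9.

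**Figure D2:**
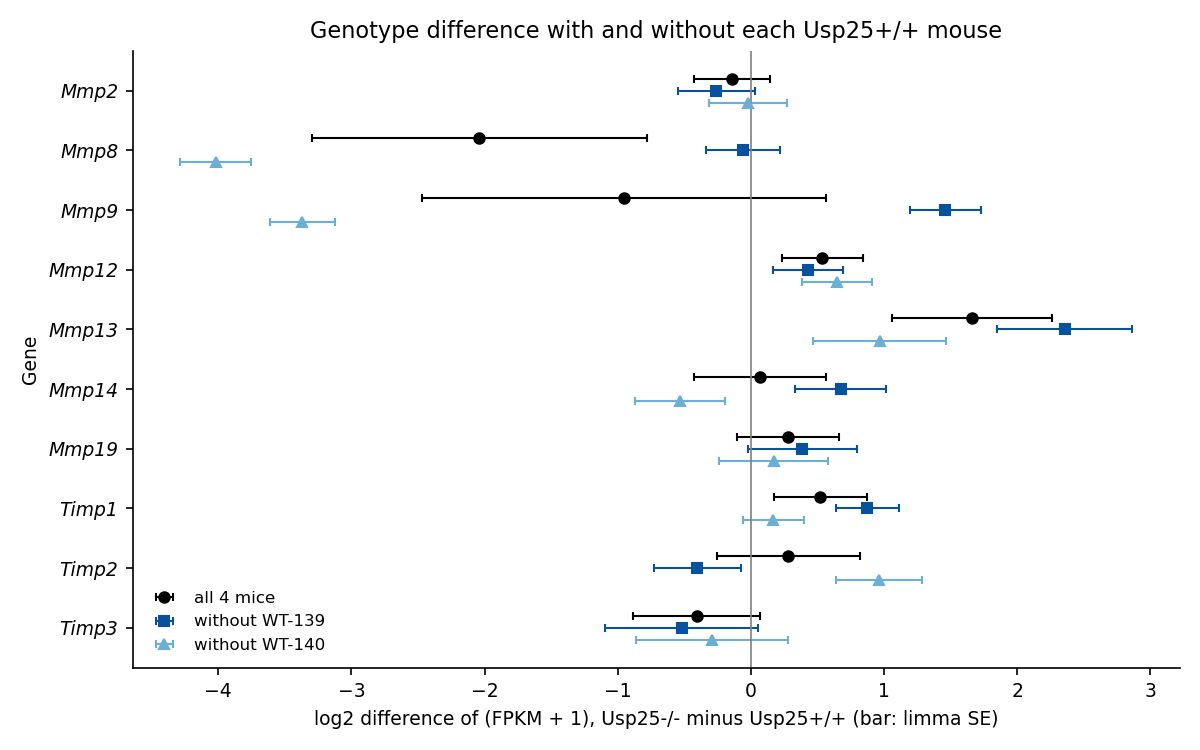
Log2 differences of FPKM + 1, Usp25-/- minus Usp25+/+, on the horizontal axis for each gene, with all 4 mice (black), without mouse WT-139 (dark blue) and without mouse WT-140 (light blue). Bars are limma standard errors, and Mmp8 moves from -2.04 with all mice to -0.06 without WT-139 and -4.02 without WT-140.

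The neutrophil marker sum, like Mmp8 and Mmp9, was highest in mouse WT-139. Among the other mice the sum and Mmp9 were highest in KO-826, where Mmp8 was lowest. The 11 markers found of 12 in the list (Ly6g had no row) summed to 41503 FPKM in WT-139, 744 in WT-140, 2077 in KO-826 and 1215 in KO-850. None was listed at 0 in all 4 mice, and the precursor-stage genes Elane and Mpo stayed below 1 FPKM. S100a8, a calcium-binding protein abundant in neutrophils, measured 19445 FPKM in WT-139, 382 in WT-140, 838 in KO-826 and 536 in KO-850. Per 1000 FPKM of summed markers, Mmp8 measured 6.12 FPKM in WT-139, 20.7 in WT-140, 6.23 in KO-826 and 13.8 in KO-850. On the same scale Mmp9 measured 3.41 FPKM in WT-139, 5.39 in WT-140, 6.72 in KO-826 and 9.65 in KO-850. S100a8 and S100a9 made up 87.8% to 90.3% of the sum in each mouse. Per 1000 FPKM of the sum without these genes, Mmp9 measured 35.1 FPKM in WT-139, 44.3 in WT-140, 61.6 in KO-826 and 82.2 in KO-850. Mmp8 then measured 63.0 FPKM in WT-139, 170 in WT-140, 57.1 in KO-826 and 118 in KO-850, with overlap. On both scales the Mmp9 groups did not overlap, but they overlapped when Mmp9 was divided by Csf3r or by Cxcr2. Ratios to the other single markers of the list were not computed. Over Csf3r, the receptor for a neutrophil growth factor, the Mmp9 ratio was 0.775 in WT-139, 0.515 in WT-140, 0.993 in KO-826 and 0.654 in KO-850. Over Cxcr2, a chemokine receptor, it was 1.37 in WT-139, 0.757 in WT-140, 1.44 in KO-826 and 1.16 in KO-850. For Mmp8 the ratios to Csf3r and to Cxcr2 were lower in both knockouts than in both wild types. On both marker sums the Mmp8 groups overlapped. Mmp8 over Csf3r was 1.39 in WT-139, 1.97 in WT-140, 0.920 in KO-826 and 0.936 in KO-850. Mmp8 over Cxcr2 was 2.47 in WT-139, 2.90 in WT-140, 1.34 in KO-826 and 1.66 in KO-850. These scales were chosen after the values were seen, and the share of all tested genes without overlap on them was not computed. The part of neutrophil number in the genotype values was not tested.

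Mouse WT-139 was also the highest for other genes of the pathway lists, of which these were chosen after their values were seen. Mmp25, a membrane-bound MMP of leukocytes, reached 11.8 FPKM in mouse WT-139 and did not exceed 0.872 FPKM elsewhere. It was not tested, since the filter asked for 1 FPKM in at least 2 mice. Lcn2, a lipocalin, measured 5537 FPKM in WT-139, 86.7 in WT-140, 82.8 in KO-826 and 105 in KO-850. Thbs1, the matrix protein thrombospondin 1, measured 479 FPKM in WT-139, 37.4 in WT-140, 52.6 in KO-826 and 46.2 in KO-850. Serpinb2, an inhibitor of plasminogen activators, measured 27.9 FPKM in WT-139, 1.11 in WT-140, 5.06 in KO-826 and 4.87 in KO-850. Mmp9 had the widest range of the 10 genes, 4.83 on the log2 scale. The 5 tested genes nearest to its centred log2 profile over the 4 mice were Ikbke, Ifitm1, Sema4d, G0s2 and Ankrd22, at root mean square distances of 0.19 to 0.25. Ikbke, a kinase of innate immune signalling and the nearest, measured 135 FPKM in WT-139, 4.71 in WT-140, 10.8 in KO-826 and 11.3 in KO-850. With 4 mice many genes can look alike, and this list is only a description.

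**Figure D3:**
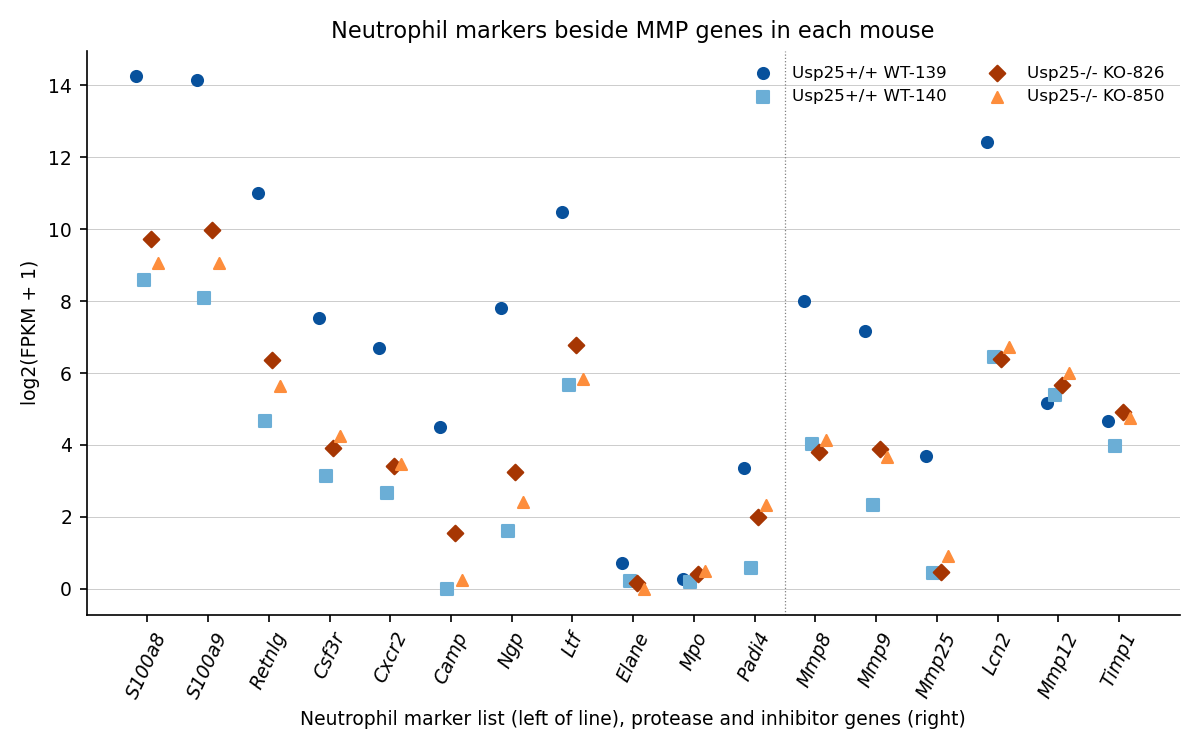
Levels as log2(FPKM + 1) on the vertical axis, 1 point per mouse, for the 11 neutrophil markers left of the dotted line and for Mmp8, Mmp9, Mmp25, Lcn2, Mmp12 and Timp1 right of it. Mouse WT-139 is highest for 10 of the 11 markers (Mpo is the exception), for Mmp8, Mmp9, Mmp25 and Lcn2, and is lowest for Mmp12 (35.2 FPKM).

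Mmp13 (collagenase 3) had the smallest unadjusted p of the 10 genes. It measured 4.82 FPKM in WT-139, 1.22 in WT-140, 15.2 in KO-826 and 6.97 in KO-850, so every knockout value was above every wild-type value. The mean ± SD was 3.02 ± 2.54 against 11.1 ± 5.81 FPKM (n = 2), and the log2 difference was 1.66 ± 0.60. Limma gave an unadjusted p of 0.0373 and an adjusted p of 0.968, and 3.3% of tested genes had an unadjusted p under 0.05. The difference was 2.36 without mouse WT-139 and 0.97 without mouse WT-140, the limma adjusted p being 0.775 and 0.341, and it ran from 0.341 to 1.00 over the alternatives. The summed colon epithelium level above was also highest in mouse KO-826 and next in KO-850, mainly through Krt20 and Lgals4. Vil1 was likewise highest in these mice, with 0.161 FPKM in WT-139, 0.101 in WT-140, 1.46 in KO-826 and 0.603 in KO-850. Fcgbp was highest in mouse KO-826, and Muc2, Car1, Slc26a3 and Cdx2 were highest in mouse WT-139, each below 1 FPKM. The 9 fibroblast markers, none listed at 0, summed to 53.6 FPKM in WT-139, 57.9 in WT-140, 47.3 in KO-826 and 127 in KO-850. Their part in the Mmp13 values was not tested.

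Mmp12 (macrophage elastase) and Mmp19 varied 1.78-fold each from the lowest to the highest mouse, the least of the abundant enzymes. Mmp12 measured 35.2 FPKM in WT-139, 41.1 in WT-140, 49.4 in KO-826 and 62.7 in KO-850, without overlap. The log2 difference for Mmp12 was 0.54 ± 0.30 (limma adjusted p = 0.968), and it ranged from 0.37 to 0.70 over the alternatives. The 10 macrophage markers found of 11 (the older symbol Emr1 had no row) summed to 1001 FPKM in WT-139, 1842 in WT-140, 1202 in KO-826 and 1135 in KO-850, with none below 1 FPKM in all mice. Per 1000 FPKM of these markers, Mmp12 measured 35.2 FPKM in WT-139, 22.3 in WT-140, 41.1 in KO-826 and 55.2 in KO-850. The groups did not overlap on that scale either, but the share of all tested genes without overlap on it was not computed. The marker sum was highest in mouse WT-140, which lowers any gene in that mouse on this scale. The 10 alveolar macrophage markers found of 11 summed to 8912 FPKM in WT-139, 13099 in WT-140, 13183 in KO-826 and 10081 in KO-850. Per 1000 FPKM of these, Mmp12 measured 3.95 FPKM in WT-139, 3.14 in WT-140, 3.75 in KO-826 and 6.22 in KO-850, with overlap. Mmp12 overlaps Mmp1b on the opposite strand, which did not exceed 0.125 FPKM.

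Mmp19, a secreted MMP on chromosome 10 from 128228009 to 128237880 (mm9, plus strand), measured 47.4 FPKM in WT-139, 40.7 in WT-140, 71.5 in KO-826 and 40.1 in KO-850. A single mouse, KO-826, was high and the groups overlapped. The log2 difference for Mmp19 was 0.28 ± 0.38 (limma adjusted p = 0.968), and -0.13 without that mouse. Its last part overlaps an opposite-strand gene, and whether the deposited values use strand is not known.

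Mmp14 and Mmp2 form a known activation pair, in which membrane-anchored Mmp14, with Timp2 as adaptor, activates pro-Mmp2. Mmp14 lies on chromosome 14 from 55050441 to 55060095 (mm9, plus strand). It measured 41.0 FPKM in WT-139, 17.2 in WT-140, 34.7 in KO-826 and 22.5 in KO-850, so that both knockout values fell inside the wild-type range. Its log2 difference was 0.07 ± 0.50 (limma adjusted p = 0.995), which became 0.67 without mouse WT-139 and -0.53 without mouse WT-140. Mmp2 (gelatinase A), on chromosome 8 from 95351227 to 95377316 (mm9, plus strand), was the lowest on average and the least variable of the 10, with 3.85 FPKM in WT-139, 4.71 in WT-140, 3.65 in KO-826 and 3.90 in KO-850. For Mmp2 the log2 difference was -0.14 ± 0.29 (limma adjusted p = 0.975). The ratio of Mmp14 to Timp2 FPKM was 1.37 and 0.218 in wild types and 0.715 and 0.311 in knockouts.

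Timp1, the inducible inhibitor, had non-overlapping groups, and Timp2 and Timp3 overlapped. Timp1 measured 24.4 FPKM in WT-139, 14.6 in WT-140, 29.1 in KO-826 and 26.1 in KO-850. Its log2 difference was 0.52 ± 0.35 (limma adjusted p = 0.968), and it was 0.87 without mouse WT-139 and 0.17 without mouse WT-140. Mouse WT-140 was the lowest of the 4, and the gap between WT-139 and KO-850 was small. The Timp1 gene lies on chromosome X from 20447292 to 20451861 (mm9, plus strand, 6 exons in the longest transcript), inside the opposite-strand synapsin gene Syn1. Syn1 measured 0.786 FPKM in WT-139, 3.67 in WT-140, 2.95 in KO-826 and 3.69 in KO-850, below Timp1 in each mouse. The 250 bases before the Timp1 start (chrX:20869916-20870165, RefSeq GRCm38.p6, plus strand) are shown as it was the 1 inhibitor without overlap. They held PEA3 letters, in capitals, 175 and 99 bases before the start and no match to the AP-1 or TATA letters.
Timp1: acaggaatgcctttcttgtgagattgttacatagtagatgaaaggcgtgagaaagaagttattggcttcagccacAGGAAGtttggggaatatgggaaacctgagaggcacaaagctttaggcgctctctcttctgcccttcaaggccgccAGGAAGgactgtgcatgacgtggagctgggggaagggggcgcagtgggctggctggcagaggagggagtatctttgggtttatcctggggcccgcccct

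Timp2, a broadly expressed inhibitor, lies on chromosome 11 from 118162383 to 118217054 (mm9, minus strand). Its level was 30.0 FPKM in WT-139, 78.7 in WT-140, 48.5 in KO-826 and 72.5 in KO-850, with both knockout values inside the wild-type range. For Timp2 the log2 difference was 0.28 ± 0.54 (limma adjusted p = 0.975), -0.40 without mouse WT-139 and 0.96 without mouse WT-140. Timp3, the inhibitor that binds to the matrix, lies on chromosome 10 from 85763117 to 85812251 (mm9, plus strand) within the opposite-strand gene Syn3, itself at most 0.759 FPKM. Timp3 measured 21.3 FPKM in WT-139, 25.1 in WT-140, 10.8 in KO-826 and 27.0 in KO-850, a single mouse, KO-826, being low. For Timp3 the log2 difference was -0.41 ± 0.48 (limma adjusted p = 0.968), and 0.22 without KO-826. The 7 endothelial markers, none listed at 0, summed to 98.3 FPKM in WT-139, 232 in WT-140, 96.3 in KO-826 and 176 in KO-850. WT-139 and KO-826 were thus the lower mice for these markers, for Timp2 and for Timp3. They were also the lower mice for the summed smooth muscle, lymphocyte and fibroblast markers, but not for the other marker lists. The part of any of these cells was not tested.

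In mouse WT-139 Mmp8 and Mmp9 had the highest levels of the 10 genes and Mmp19 followed. In the other 3 mice Timp2, Mmp12 and Mmp19 held the first 3 places: Timp2 led in mice WT-140 and KO-850, and Mmp19 led in mouse KO-826. Mmp12 and Mmp19 were at 41.1 and 40.7 FPKM in mouse WT-140 and swapped order between the knockouts, so these neighbours did not differ beyond the spread of the mice. Mmp2 was the lowest in each mouse except WT-140, where Mmp13 was, with Mmp9 next at 4.01 FPKM.

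Summed over the 7 enzymes the level was 528 FPKM in WT-139, 124 in WT-140, 201 in KO-826 and 165 in KO-850. Mmp8 and Mmp9 made up 74.9% of it in mouse WT-139 and 13.4% to 17.3% in the other mice, where Mmp12 and Mmp19 made up 60.0% to 65.8%. The 3 inhibitors summed to 75.6 FPKM in WT-139, 118 in WT-140, 88.4 in KO-826 and 126 in KO-850, and Timp2 was the largest part in each mouse. The enzyme sum divided by the inhibitor sum was 6.98 and 1.05 in wild types and 2.28 and 1.31 in knockouts, which lay between the others. As a log2 ratio this was 1.44 ± 1.93 against 0.79 ± 0.56 (SD, n = 2), and the sign of the difference turned without mouse WT-139 (0.72). Without Mmp8 the ratio was 3.62 and 0.921 against 2.13 and 1.18. With 2 mice against 2 an exact permutation test cannot go below p = 0.333, and no test was made of these ratios.

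**Figure D4:**
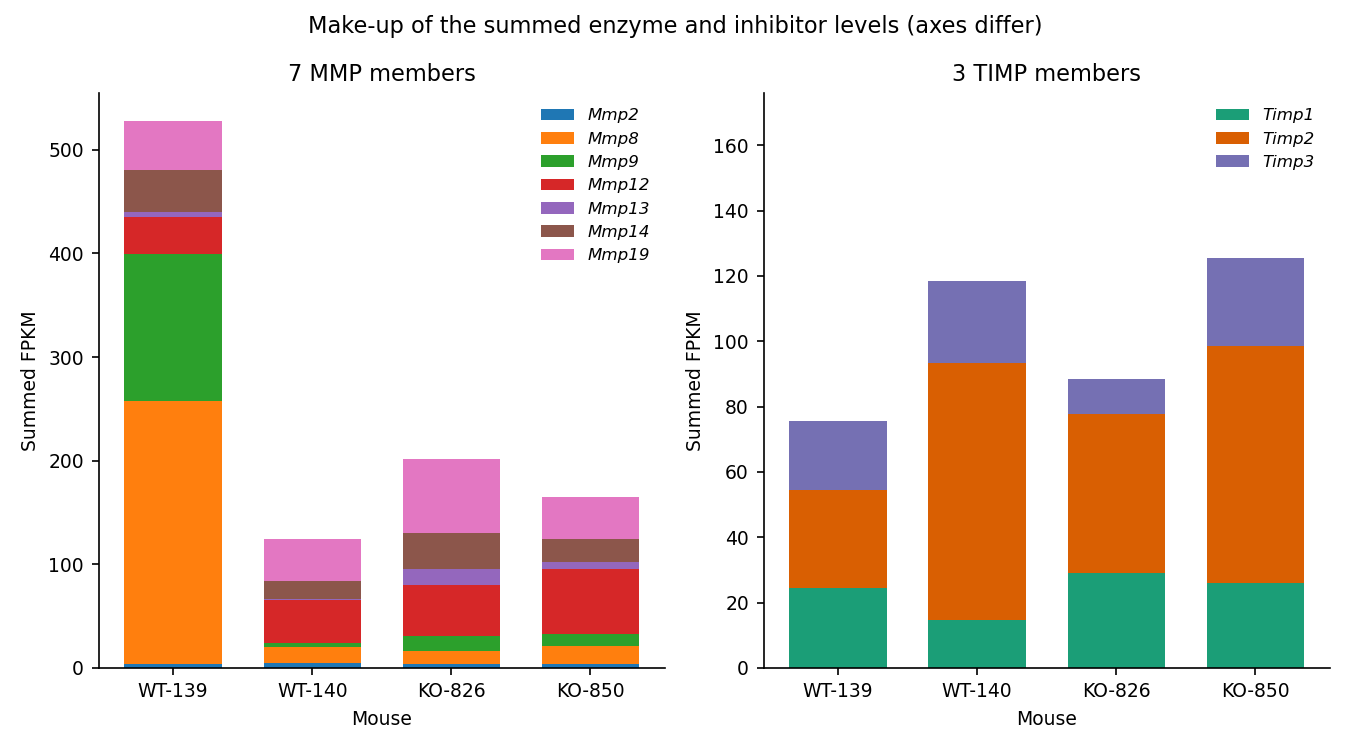
Summed FPKM per mouse on the vertical axes, split by gene, for the 7 MMP genes (left) and the 3 TIMP genes (right), with different vertical scales. The enzyme sum is 528 FPKM in mouse WT-139, mostly Mmp8 and Mmp9, and 124 to 201 FPKM in the other mice.

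The rest of the family was mostly low. Of 17 further MMP and TIMP genes, 10 were below 1 FPKM in all 4 mice, among them the matrilysin gene Mmp7 and the stromelysin gene Mmp10, and Mmp21 was listed at 0 in each. Limma tested 5 of them: 0 passed the adjusted threshold, 4 had a higher mean log2 level in Usp25-/- mice, where 53.6% of tested genes did, and the median log2 difference was 0.42. Without mouse WT-139, 3 of the 5 were higher (49.1% of tested genes), with a median of 0.16. Mmp23 had the smallest p. It measured 0.440 FPKM in WT-139, 1.40 in WT-140, 4.40 in KO-826 and 3.24 in KO-850, and the log2 difference was 1.36 ± 0.39 (limma adjusted p = 0.968). Mmp3 (stromelysin 1), in the chromosome 9 run, measured 10.9 FPKM in WT-139, 3.66 in WT-140, 8.49 in KO-826 and 9.47 in KO-850, with overlap. Mmp15, a membrane-type MMP, measured 3.53 FPKM in WT-139, 6.82 in WT-140, 9.19 in KO-826 and 6.49 in KO-850. Mmp27 measured 1.47 FPKM in WT-139, 1.50 in WT-140, 0 in KO-826 and 1.20 in KO-850. Of the 5 tested, 1 was higher in both knockouts (Mmp23), as were 19% of tested genes. Another 1 was lower in both (Mmp27), as were 14.7%. Limma gave an unadjusted p under 0.05 for 1 of the 5, Mmp23, and for 3.3% of tested genes.

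**Figure D5:**
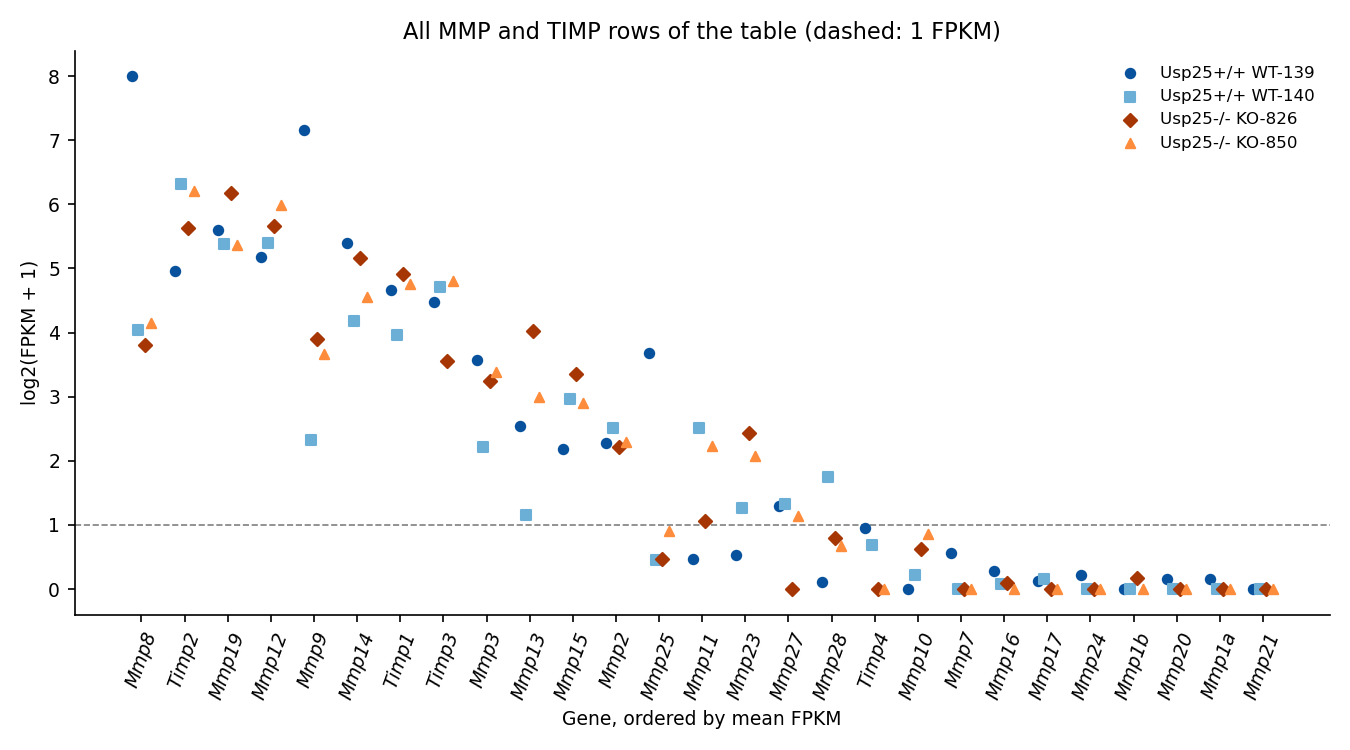
Levels of all 27 MMP and TIMP genes of the table as log2(FPKM + 1) on the vertical axis, ordered by mean FPKM along the horizontal axis, 1 point per mouse, with 1 FPKM as a dashed line. The 10 genes described lie among the 12 highest, and 10 of the others stay below the line in every mouse.

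Genes that switch MMPs on or restrain them were tested in the same fit. Of 19 such genes 14 were tested, 0 passed the adjusted threshold, and 5 had higher and 9 lower mean log2 levels in Usp25-/- mice, with a median log2 difference of -0.23. Without mouse WT-139, 10 of the 14 were higher, with a median of 0.31, where 49.1% of tested genes were higher. Pcsk6, a proprotein convertase, measured 4.64 FPKM in WT-139, 4.56 in WT-140, 12.7 in KO-826 and 8.19 in KO-850 (log2 difference 1.00 ± 0.32, limma adjusted p = 0.968). Furin, the convertase that activates pro-Mmp14, measured 88.5 FPKM in WT-139, 80.3 in WT-140, 53.3 in KO-826 and 42.4 in KO-850 (log2 difference -0.81 ± 0.30, limma adjusted p = 0.968). These were the 2 of the 14 with an unadjusted p under 0.05 (3.3% of tested genes). Groups did not overlap for 4 of the 14: Pcsk6, Bsg and Sparc were higher in both knockouts (19% of tested genes) and Furin was lower (14.7%). Bsg, a membrane glycoprotein known to induce MMPs, measured 255 FPKM in WT-139, 283 in WT-140, 448 in KO-826 and 287 in KO-850. Sparc, a collagen-binding matricellular protein, measured 30.1 FPKM in WT-139, 58.5 in WT-140, 69.8 in KO-826 and 127 in KO-850. Plasminogen activation genes overlapped: Plau measured 26.2 FPKM in WT-139, 20.9 in WT-140, 42.4 in KO-826 and 22.4 in KO-850, and its receptor Plaur 548 FPKM in WT-139, 335 in WT-140, 521 in KO-826 and 285 in KO-850. Plg, the plasminogen gene, was listed at 0 in each mouse, and Reck, a membrane inhibitor of MMPs, stayed below 1 FPKM.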

How the data were processed

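FPKM values per gene were deposited by the authors in 1 table with a column for each of the 4 mice. Bowtie 0.12.2 and the mm9 build are named per the submitters' processing notes. No source used here names the FPKM program, annotation, strandedness or filters. Symbols turned into dates (27 rows) were left out. Depth is unknown. The most frequent ratio of low values, KO-826 over the other mouse, was 1.58 for WT-139, 1.27 for WT-140 and 0.94 for KO-850. It rested on 7 to 12 genes per pair of mice, at most 0.506% of those compared. Genes listed at 0 numbered 3862 in WT-139, 8813 in WT-140, 7175 in KO-826 and 8612 in KO-850. The ratio is therefore no reliable measure of depth, least of all for WT-140.

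Genes with an FPKM of at least 1 in at least 2 mice (12103) were analysed as log2(FPKM + 1), which understates changes of low genes. Limma 3.58.1 (R 4.3.3) compared genotypes with a moderated two-sided test, a mean-variance trend and Benjamini-Hochberg adjustment over all tested genes at 0.05, and was tested on simulated data. No litter or batch is recorded, and p-values reflect only how these 4 mice vary.

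Named were all 10 members, Usp25, up to 5 tested genes with the smallest p of each pathway list, and the 5 genes nearest in profile to the member with the widest range. Others were chosen after their values were seen, as were all ratios to marker sums. The members and lists were chosen with earlier results of these data known. Gene positions are from Gencode (mm9), promoters from RefSeq (GRCm38.p6). Alternatives covered the pseudocount, filter, scaling, trend and leaving out each mouse.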

Additional observations from a re-analysis of the deposited data

How the results depend on the processing

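Over the alternatives run for the 10 genes, 100 values kept their direction and side of the threshold, 7 reversed and 2 passed the threshold (Mmp8 and Mmp9 without mouse WT-140). Every reversal came from leaving out a mouse. On leaving out each mouse in turn the log2 difference ran from -3.37 to 1.46 for Mmp9, from -0.53 to 0.67 for Mmp14, from -0.13 to 0.69 for Mmp19, from -0.40 to 0.96 for Timp2 and from -1.03 to 0.22 for Timp3, and the cause was not tested. The number of genes called by limma ran from 0 to 92, the 92 being without mouse WT-140, 6 higher and 86 lower in Usp25-/- mice. With pseudocounts of 0.1 and 0.5, no filter, a mean FPKM of at least 5, both rescalings or no trend, limma called 0 genes, with 227 to 571 genes at an unadjusted p under 0.05. Mmp2 did not reach the mean FPKM of 5 and has no value there. The log2 ratio of enzyme to inhibitor sums, Usp25-/- minus Usp25+/+, was -0.65. It was -0.21 without Mmp8 and -0.22 from mean log2 values, and ran from -2.01 to 0.72 on leaving out each mouse. No paired analysis was possible because the mice carry individual numbers that no 2 mice share. FPKM without read totals gives no counting interval, so values near 1 FPKM are the least certain.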

Other observations

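Other metalloproteinases and the matrix genes that MMPs act on also gave no call. Of 17 ADAM and ADAMTS genes, related proteases that shed membrane proteins or cut proteoglycans, 13 were tested, 0 passed limma's adjusted threshold and 0 had groups without overlap, where 19% of all tested genes were higher and 14.7% lower in both knockouts. Of the 13, 4 had higher mean log2 levels in Usp25-/- mice, where 53.6% of tested genes did, and the median log2 difference was -0.12. Without mouse WT-139, 6 of the 13 were higher, with a median of -0.02. Adam8, a protease of myeloid cells, measured 92.3 FPKM in WT-139, 10.1 in WT-140, 15.4 in KO-826 and 12.5 in KO-850. Adam17, which releases TNF from the cell surface, measured 54.0 FPKM in WT-139, 22.0 in WT-140, 20.3 in KO-826 and 26.8 in KO-850. Adamts1, an aggrecan- and versican-cutting protease, measured 19.8 FPKM in WT-139, 47.9 in WT-140, 9.62 in KO-826 and 20.8 in KO-850.

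Of 16 genes for matrix proteins 14 were tested, 0 passed limma's adjusted threshold, 8 had higher and 6 lower mean log2 levels in Usp25-/- mice, and the median log2 difference was 0.02. Col1a1, Col1a2 and Lamb1 had groups without overlap, 3 of 14 tested, and all 3 were higher in Usp25-/- mice, as were 19% of all tested genes. The collagen I gene Col1a2 measured 4.18 FPKM in WT-139, 5.92 in WT-140, 7.70 in KO-826 and 17.8 in KO-850 (log2 difference 1.09 ± 0.46, limma adjusted p = 0.968). Fn1, the fibronectin gene and the most abundant of the list, measured 86.3 FPKM in WT-139, 114 in WT-140, 86.4 in KO-826 and 75.2 in KO-850.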
